A study of Homo sapiens with 8 samples.

Results

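The PFKFB, PDK and PDP genes encode enzymes that set the flux through glycolysis and the fate of the pyruvate it makes. They were chosen by symbol, as a list of 10 genes, with earlier results of these data known. Of these, 9 had a probe set named for them alone, out of 18404 genes tested. PFKFB1, PFKFB2, PFKFB3, PFKFB4, PDK1, PDK2, PDK3, PDK4 and PDP1 had 1 such probe set each. PDP2 was not analysed here. Expression was measured on 8 single-channel whole-transcript arrays in HepG2, a cell line from a human liver tumour that still makes plasma proteins such as albumin. The H2O2 group comprised 4 cultures exposed for 60 minutes to 0.5 mM hydrogen peroxide in medium to make them senescent, that is, to bring on a lasting arrest of cell division. The untreated group comprised 4 cultures that received medium alone, and both groups were grown in serum-containing Dulbecco's medium with antibiotics. Per the labels, washed cells were kept for 5 days before the senescent phenotype was tested, and no separate time is given for RNA. Both groups are 1 tumour line, so they stand for hepatocytes only as far as HepG2 does. The design text calls the 4 cultures of a condition biological replicates.

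The PFKFB enzymes carry a kinase and a phosphatase in 1 chain: the kinase makes fructose 2,6-bisphosphate, the strongest activator of phosphofructokinase, and the phosphatase removes it. PFKFB1 is the form first known from liver, PFKFB2 from heart, PFKFB3 is widely inducible with kinase activity far above its phosphatase activity, and PFKFB4 was first known from testis. The PDK enzymes are mitochondrial kinases that switch off the pyruvate dehydrogenase complex, the gate from pyruvate to acetyl-CoA, and the PDP phosphatases switch it on again. PFKFB3, PFKFB4, PDK1 and PDK3 are known targets of hypoxia-inducible factor (HIF), whereas PDK4 is known to respond to fasting signals through PPAR, FOXO and glucocorticoid receptors.

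In cells treated with H2O2, 3 of the 9 measured genes rose (PFKFB1, PFKFB2 and PDP1), 4 fell (PFKFB3, PFKFB4, PDK1 and PDK3) and 2 were not called (PDK2 and PDK4). A call is an adjusted p under 0.05 in limma, a linear model fitted across all genes with Benjamini-Hochberg adjustment. All values below are log2 expression, and each difference is H2O2 minus untreated with its standard error. Of all genes tested, 34% were called, 19.2% higher and 14.8% lower, so a call alone sets a gene little apart in these data. The median absolute log2 difference was 1.06 over the 9 genes, against 0.14 over all genes. Of the 9 genes, 5 were called with an absolute difference of 1 or more, against 3% of all genes. The groups did not overlap in 7 of the 9 genes, against 33.7% of all genes. The list was chosen with earlier results of these data known, so these contrasts are descriptive only. The list's median difference was -0.11, beside -0.022 for all genes, with members on either side of 0.

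**Figure D1:**
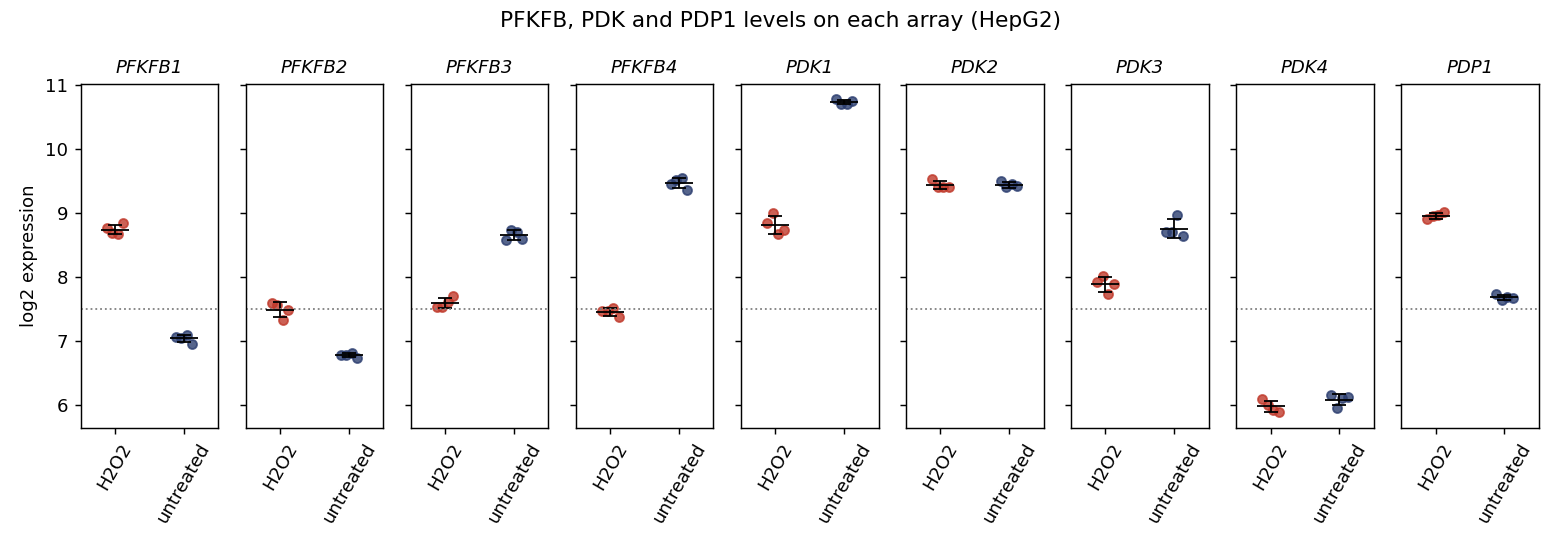
Log2 expression (vertical axis) of the 9 measured genes on each of 4 H2O2 and 4 untreated HepG2 arrays. Points are arrays, bars are the mean ± SD, and the dotted line is the mean of the arrays' medians over all tested genes; levels of different genes are not comparable because probe sets differ. The groups are apart for every gene but PDK2 and PDK4.

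The array medians lay between 6.85 and 6.93 over all probe sets, and between 7.48 and 7.54 over the tested genes. Across all probe sets, Pearson's r was at least 0.9905 between arrays of 1 group and at most 0.985 between arrays of different groups. Of 10 hepatocyte markers 9 were measured, and all 9 lay above the median of the tested genes in both groups, with ALB, albumin, at 12.31 ± 0.081 in H2O2 cells and 12.55 ± 0.034 in untreated cells (SD, n = 4 each). HNF4A was not analysed here. All 4 endothelial markers lay below that median in both groups, as did the leukocyte antigen PTPRC, at 4.09 ± 0.12 in H2O2 cells and 4.23 ± 0.080 in untreated cells. Of 5 fibroblast markers, 4 lay below it in H2O2 cells and 3 in untreated cells, and of 5 leukocyte markers 2 did in H2O2 cells and 3 in untreated cells. The leukocyte markers LYZ and CD68 lay above it in both groups. LYZ was at 12.83 ± 0.067 in H2O2 cells and 12.90 ± 0.015 in untreated cells, and CD68 at 10.36 ± 0.087 in H2O2 cells and 9.56 ± 0.082 in untreated cells. The summed marker level, as a mean over each list, ranged from 11.75 to 12.001 on H2O2 arrays and from 12.14 to 12.18 on untreated arrays for hepatocyte markers, where 5 of 9 genes fell and 1 rose. It ranged from 8.03 to 8.13 on H2O2 arrays and from 7.93 to 7.97 on untreated arrays for leukocyte markers, of which CD68, a lysosomal membrane protein, and CD14 rose. For fibroblast markers it ranged from 6.41 to 6.67 on H2O2 arrays and from 6.62 to 6.72 on untreated arrays, and for endothelial markers from 6.05 to 6.25 on H2O2 arrays and from 6.06 to 6.20 on untreated arrays. Of the fibroblast markers 1 rose and 1 fell: the growth factor receptor PDGFRB fell by 1.15 ± 0.088 on the log2 scale (limma adjusted p = 2.85e-07), and the collagen COL1A1 rose (0.41 ± 0.076, adjusted p = 0.00069). PDGFRB lay below the median of the tested genes on all 4 H2O2 arrays, so its size is approximate. The leukocyte marker CD14 lay below that median on 3 H2O2 arrays and all 4 untreated arrays. Of the endothelial markers 1 fell, the cadherin CDH5, by 0.25 ± 0.073 (adjusted p = 0.018), a call lost without H2O2 replicate 1 or untreated replicate 4 at adjusted p up to 0.0713. The part of these markers in the results was not tested. In bulk samples, fewer cells of a kind and less RNA per cell cannot be told apart.

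Among the bifunctional enzymes, PFKFB4 changed most. PFKFB4 was at 7.47, 7.47, 7.52 and 7.38 on the H2O2 arrays, against 9.46, 9.52, 9.55 and 9.36 on the untreated arrays. Every H2O2 array lay at least 1.84 log2 units below every untreated array. The mean was 7.46 ± 0.060 in H2O2 cells and 9.47 ± 0.083 in untreated cells (SD, n = 4 each), a log2 difference of -2.01 ± 0.068 or a 4.04-fold lower level (limma adjusted p = 1.27e-10). Only 9 of the 18404 genes had a lower difference. On all 4 H2O2 arrays the level was below the median of the tested genes, where no value shows that signal exceeds background, so the fold is only approximate.

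PFKFB3, the inducible isoform with high kinase activity, was at 7.54, 7.53, 7.61 and 7.70 on the H2O2 arrays, against 8.58, 8.73, 8.70 and 8.60 on the untreated arrays. The groups were separated by 0.87 log2 units at their nearest arrays. It was 2.08-fold lower in H2O2 cells (log2 difference -1.06 ± 0.070, limma adjusted p = 7.14e-08). On 1 of the H2O2 arrays the level was below the median of the tested genes, so the fold is only approximate.

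PFKFB1, the liver isoform, went the other way. Its H2O2 arrays read 8.76, 8.69, 8.68 and 8.84, and its untreated arrays 7.07, 7.05, 7.10 and 6.96. The lowest H2O2 array was 1.58 log2 units above the highest untreated one, and all 4 untreated arrays lay below the median of the tested genes. PFKFB1 thus rose 3.25-fold (log2 difference 1.70 ± 0.067, limma adjusted p = 4.87e-10), an approximate fold given those untreated levels, and 101 genes had a higher difference.

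PFKFB2, the heart isoform, read 7.59, 7.56, 7.33 and 7.49 on the H2O2 arrays, against 6.79, 6.79, 6.81 and 6.75 on the untreated arrays. All H2O2 arrays were higher, with a gap of 0.52 between the nearest arrays and more spread in H2O2 cells (SD 0.12) than in untreated cells (SD 0.029). The rise was 1.63-fold (log2 difference 0.71 ± 0.071, limma adjusted p = 3.67e-06). Like PFKFB1, PFKFB2 lay below the median of the tested genes on all 4 untreated arrays. Unlike PFKFB1, it also lay below it on 2 of the 4 H2O2 arrays, so the fold is only approximate.

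Of the pyruvate dehydrogenase kinases, PDK1 was the one with the largest difference. PDK1 read 8.85, 9.003, 8.67 and 8.74 on the H2O2 arrays, against 10.78, 10.71, 10.70 and 10.75 on the untreated arrays. The untreated arrays lay close together, the H2O2 arrays were more spread (SD 0.15, against 0.036 in untreated cells), and the nearest arrays were 1.70 apart. Its mean was 8.82 in H2O2 cells and 10.73 in untreated cells, a 3.78-fold lower level (log2 difference -1.92 ± 0.077, limma adjusted p = 5.69e-10). Only 12 genes had a lower difference, and the level stayed above the median of the tested genes on every array.

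PDK3, the most active PDK isoform in biochemical work, was at 7.92, 8.02, 7.73 and 7.90 on the H2O2 arrays, against 8.71, 8.71, 8.97 and 8.64 on the untreated arrays. The groups were 0.62 log2 units apart at their nearest arrays. PDK3 was 1.82-fold lower in H2O2 cells (log2 difference -0.87 ± 0.086, limma adjusted p = 3.20e-06).

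PDK2, the broadly expressed kinase, was at 9.54, 9.41, 9.41 and 9.41 on the H2O2 arrays and at 9.50, 9.40, 9.45 and 9.42 on the untreated arrays. The groups overlapped almost wholly. Its log2 difference was -0.0020 ± 0.064, with a 95% interval from -0.14 to 0.14 (limma adjusted p = 0.986), so a change as large as those of PDK1 or PDK3 lay outside the interval.

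PDK4, the kinase of the fasting response, read 6.10, 6.01, 5.93 and 5.90 on the H2O2 arrays and 6.16, 5.96, 6.11 and 6.13 on the untreated arrays. The groups overlapped, and on all 8 arrays the value lay below the median of the tested genes. The log2 difference was -0.11 ± 0.072, with a 95% interval from -0.26 to 0.048 (limma adjusted p = 0.294). No value shows that signal exceeds background there.

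PDP1, the catalytic subunit of a pyruvate dehydrogenase phosphatase, opposes these kinases. It was at 8.90, 8.96, 8.97 and 9.01 on the H2O2 arrays, against 7.73, 7.64, 7.69 and 7.68 on the untreated arrays. With an SD of 0.044 in H2O2 cells and 0.038 in untreated cells, its difference was the largest of the 9 relative to its spread, at 31.1 pooled SDs. PDP1 rose 2.42-fold (log2 difference 1.27 ± 0.062, limma adjusted p = 3.32e-09), and 199 genes had a higher difference.

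**Figure D2:**
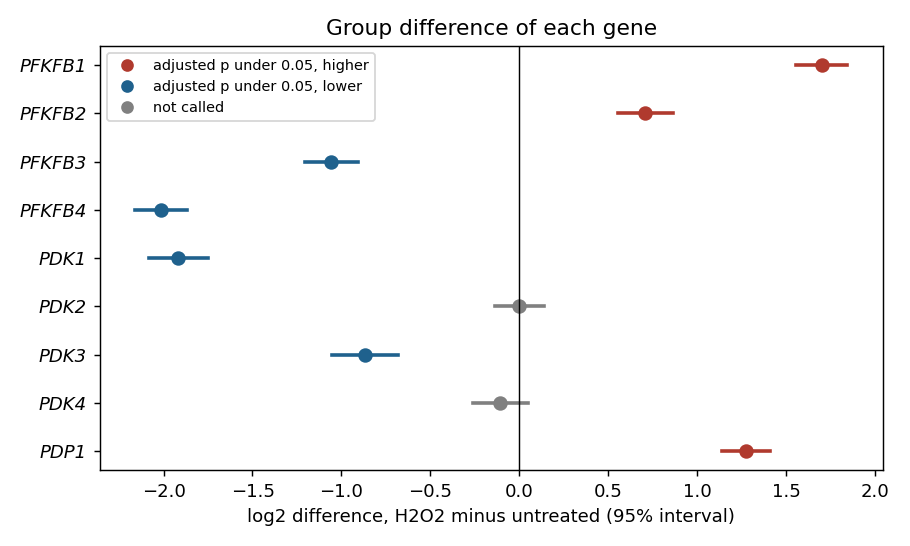
Log2 difference, H2O2 minus untreated (horizontal axis), of each of the 9 genes with its 95% interval from limma, n = 4 arrays per group. PFKFB1, PFKFB2 and PDP1 lie above 0, PFKFB3, PFKFB4, PDK1 and PDK3 below, and the intervals of PDK2 and PDK4 hold 0.

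**Figure D3:**
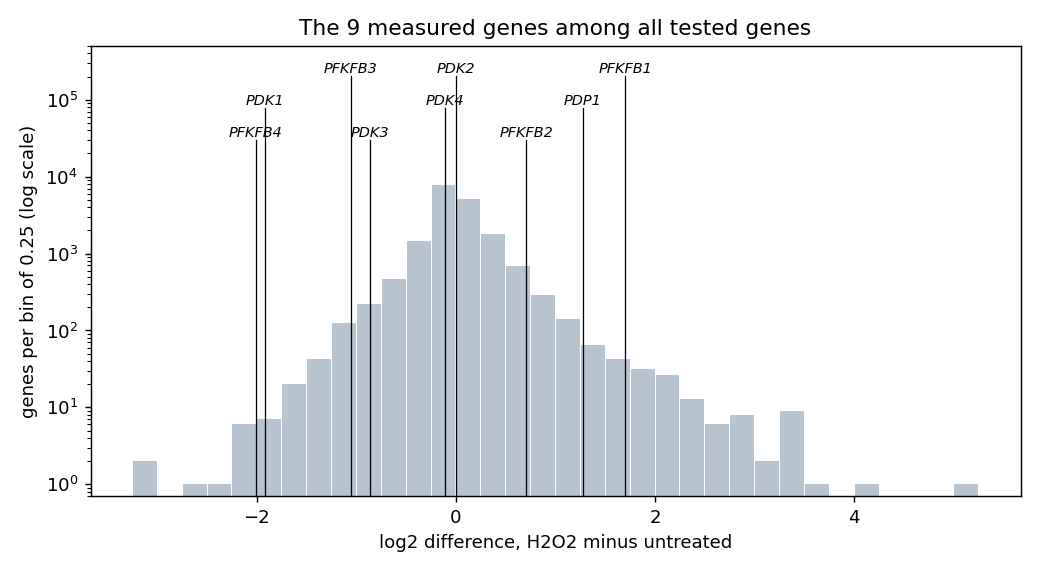
Number of genes (vertical log axis) by log2 difference, H2O2 minus untreated, in bins of 0.25, for all 18404 genes tested. Vertical lines mark the 9 genes: PFKFB4 and PDK1 lie in the outer lower tail, with 9 and 12 genes lower, and PFKFB1 has 101 genes above it.

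Whether paralogs changed unequally was tested on the difference between their log2 values within each array, which cancels what an array's scale adds to both. There were 12 measured pairs within the PFKFB and the PDK family. An exact two-sided permutation test over the 70 assignments of arrays to groups was run for each, with adjustment over the 12 pairs; the smallest p it can give is 0.0286. In the 9 pairs without PDK4 the groups did not overlap (exact p = 0.0286, adjusted 0.0312). PFKFB1 minus PFKFB4 gave the largest shift, 3.71 ± 0.069 log2 units, at 1.28 ± 0.13 in H2O2 cells and -2.43 ± 0.037 in untreated cells (SD, n = 4 each). PFKFB1 minus PFKFB3 shifted by 2.76 ± 0.049, PFKFB2 minus PFKFB4 by 2.72 ± 0.080 and PFKFB2 minus PFKFB3 by 1.76 ± 0.091. These pairs, like PFKFB1 minus PFKFB4, set an isoform that rose against an isoform that fell. The groups of both genes were already apart, in opposite directions. The exact p of such a pair could thus only be the smallest, 0.0286, and the test adds nothing to the calls there. In the other pairs without PDK4, the separate ranges of the 2 genes fixed the same p, so there too the test adds nothing. The measured log2 differences of isoforms that moved the same way were also unequal, that of PFKFB1 above that of PFKFB2 by 0.99 ± 0.060 and that of PFKFB4 below that of PFKFB3 by 0.96 ± 0.069. Since PFKFB1 and PFKFB2 lay below the median of the tested genes on all 4 untreated arrays and PFKFB4 on all 4 H2O2 arrays, the sizes of these shifts are only approximate.

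In the PDK family, PDK1 minus PDK2 shifted by -1.92 ± 0.076, PDK1 minus PDK3 by -1.05 ± 0.089 and PDK2 minus PDK3 by 0.86 ± 0.095. The measured log2 difference of PDK1, which phosphorylates the complex as PDK2 and PDK3 do, was thus below those of both. The 3 pairs with PDK4 were in the same adjustment, but since no value shows PDK4 above background, they are not read as unequal change.

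**Figure D4:**
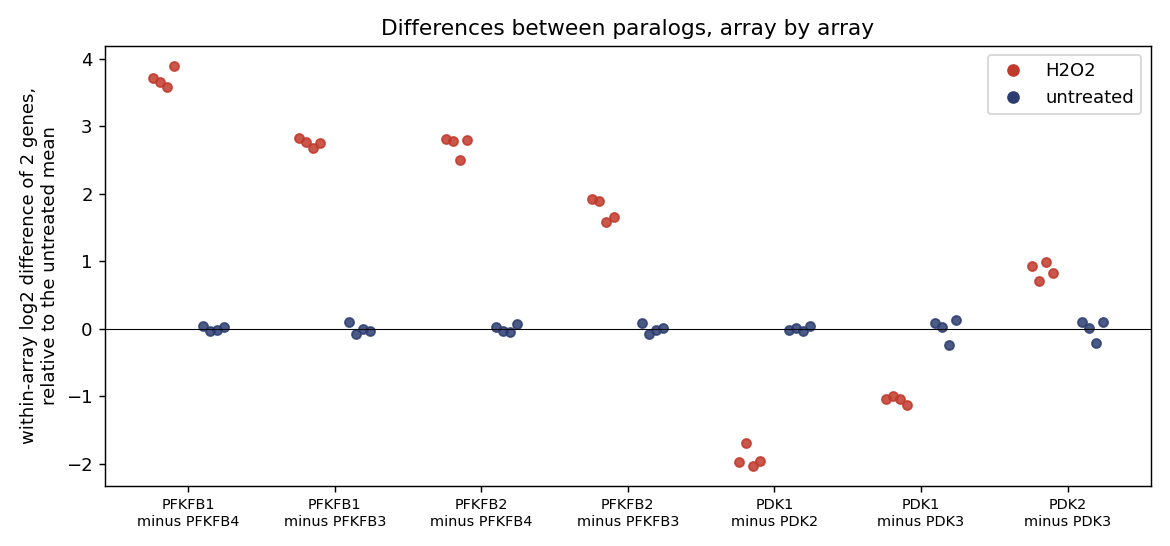
Within-array log2 difference of 2 paralogs (vertical axis), relative to its mean in untreated cells, for 7 of the 12 pairs; points are arrays, 4 H2O2 to the left of 4 untreated in each pair. H2O2 arrays sit near 3.71 for PFKFB1 minus PFKFB4 and near -1.92 for PDK1 minus PDK2, and the groups are apart in all 7.

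Because PFKFB3, PFKFB4, PDK1 and PDK3 are known HIF targets, the sequence around their starts was searched for the core of the hypoxia response element, ACGTG or GCGTG on either strand. RefSeq windows (GRCh38.p14) of 300 bases, 250 before to 50 after a start, were found for 7 of the 9 genes, 12 windows in all. None was found for PFKFB2 or PDP1, which both rose. ACGTG lies in 21.4% of all 35116 such windows of 300 bases, GCGTG in 36.5% and either in 48.4%, so a match is common. ACGTG overlaps the palindrome CACGTG, the E-box bound by MYC and MAX relatives, which counts as a match on both strands and lies in 7.26% of windows. Of the genes that fell, PFKFB4 had 1 GCGTG in its window, PFKFB3 had 1 GCGTG at one start and 2 ACGTG that form 1 CACGTG at the other, PDK1 had 2 ACGTG at 1 of 2 starts, and PDK3 had 1 of each. PDK2, which was not called, held 1 GCGTG and 1 CACGTG in 1 of its 3 windows. Neither of the 2 windows of PFKFB1, the only gene that rose for which windows were found, nor the window of PDK4 held a match. Both cores hold CG, and the windows of PFKFB1 were 52% and 40.7% G and C. The matched windows of the genes that fell were at 68% to 78.3%, and the part of base content was not tested. A match describes letters only, and no match says nothing of binding elsewhere. The windows below are shown because they set the genes with the largest falls beside PDK2 and PFKFB1; capitals mark the matches on either strand. Their positions are chr3:48556754-48557053 on the minus strand for PFKFB4, chr2:172555840-172556139 on the plus strand for PDK1, chr10:6202682-6202981 on the plus strand for PFKFB3, chr17:50095101-50095400 on the plus strand for PDK2 and chrX:54994139-54994438 on the minus strand for PFKFB1.
PFKFB4: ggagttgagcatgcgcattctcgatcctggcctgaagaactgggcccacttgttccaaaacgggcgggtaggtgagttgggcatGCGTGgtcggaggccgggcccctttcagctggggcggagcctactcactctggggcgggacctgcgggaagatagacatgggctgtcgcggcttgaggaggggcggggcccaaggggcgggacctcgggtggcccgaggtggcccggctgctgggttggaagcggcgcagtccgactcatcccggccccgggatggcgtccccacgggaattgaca
PDK1: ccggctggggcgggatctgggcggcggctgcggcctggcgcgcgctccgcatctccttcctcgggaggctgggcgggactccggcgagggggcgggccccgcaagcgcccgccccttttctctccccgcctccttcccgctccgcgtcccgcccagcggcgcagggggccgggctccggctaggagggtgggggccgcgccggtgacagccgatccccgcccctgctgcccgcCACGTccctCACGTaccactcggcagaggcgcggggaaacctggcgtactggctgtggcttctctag
PFKFB3: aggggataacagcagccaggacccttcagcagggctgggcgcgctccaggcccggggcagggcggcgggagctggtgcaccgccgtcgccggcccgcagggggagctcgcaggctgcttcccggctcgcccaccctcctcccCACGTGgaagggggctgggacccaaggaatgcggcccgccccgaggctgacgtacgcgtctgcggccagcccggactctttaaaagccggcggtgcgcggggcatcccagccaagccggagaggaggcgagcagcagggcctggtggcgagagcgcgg
PDK2: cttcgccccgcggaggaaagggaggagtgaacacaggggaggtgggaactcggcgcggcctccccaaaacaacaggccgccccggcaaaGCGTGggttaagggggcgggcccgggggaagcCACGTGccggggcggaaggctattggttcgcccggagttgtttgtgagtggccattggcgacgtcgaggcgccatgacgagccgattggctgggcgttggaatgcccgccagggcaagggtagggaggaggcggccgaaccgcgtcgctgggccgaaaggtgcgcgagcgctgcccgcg
PFKFB1: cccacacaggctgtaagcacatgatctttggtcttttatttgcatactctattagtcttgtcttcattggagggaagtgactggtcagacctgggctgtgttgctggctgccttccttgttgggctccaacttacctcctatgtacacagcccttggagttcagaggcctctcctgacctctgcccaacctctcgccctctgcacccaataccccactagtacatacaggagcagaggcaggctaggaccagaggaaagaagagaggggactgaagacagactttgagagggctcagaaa

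A wider list of hypoxia targets was measured beside them. Of 18 measured hypoxia target genes 14 fell and 2 rose, beside 14.8% of all genes called lower and 19.2% called higher. Their median log2 difference was -0.75, against -0.022 over all genes. The list holds none of the PFKFB or PDK genes and was chosen with earlier results of these data known. LOX, which cross-links collagen, fell by 3.24 ± 0.11 on the log2 scale, the collagen prolyl hydroxylase P4HA1 by 1.60 ± 0.091 and the mitophagy receptor BNIP3 by 1.24 ± 0.065. LOX lay below the median of the tested genes on 2 H2O2 arrays, so its size is approximate. SLC2A1, the glucose transporter GLUT1, rose (0.44 ± 0.063, limma adjusted p = 8.56e-05). CA12, a carbonic anhydrase, also passed (0.26 ± 0.081, adjusted p = 0.0235), a call lost in 5 of 15 alternatives at adjusted p up to 0.0888: without H2O2 replicate 1, untreated replicate 1 or untreated replicate 3, with the replicate block and with all probe sets in the fit.

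Of 8 measured HIF factors and hydroxylases that mark HIF for destruction or block it, 2 rose and 3 fell (median -0.18). Of all genes, 19.2% were called higher and 14.8% lower. The mRNA of HIF1A, an oxygen-regulated subunit, was at 11.60 ± 0.098 in H2O2 cells and 10.95 ± 0.090 in untreated cells. This was a rise of 0.66 ± 0.074 (limma adjusted p = 1.03e-05). Its counterpart EPAS1 was not called (-0.22 ± 0.089, adjusted p = 0.0788, but under 0.05 in 6 of 16 alternatives). HIF3A was not called either (-0.14 ± 0.080, adjusted p = 0.198, but under 0.05 with array weights), and lay below the median of the tested genes on all 8 arrays. The hydroxylase EGLN3, itself a known HIF target, fell by 1.26 ± 0.099 and the ubiquitin ligase subunit VHL by 0.31 ± 0.067. EGLN3 lay below the median of the tested genes on all 4 H2O2 arrays, so its size is approximate. HIF1AN (0.29 ± 0.086) and EGLN1 (-0.23 ± 0.074) passed too, but the first call was lost in 3 of 16 alternatives, without untreated replicate 1, 2 or 4, at adjusted p up to 0.0652. The EGLN1 call was lost in 6 of 16, without replicate 1 or 2 of either group, with the replicate block and with all probe sets in the fit, at adjusted p up to 0.0937. HIF protein was not measured.

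At the step that fructose 2,6-bisphosphate controls, 2 of 6 genes rose and 2 fell (median 0.025), beside 19.2% of all genes called higher and 14.8% lower. TIGAR, a p53 target whose product removes the same activator, rose 4.56-fold, to 9.29 ± 0.19 in H2O2 cells, against 7.10 ± 0.24 in untreated cells (limma adjusted p = 9.94e-09); all 4 untreated arrays lay below the median of the tested genes, so this fold is approximate. The platelet-type phosphofructokinase PFKP rose (0.89 ± 0.084), with all 4 untreated arrays below that median, and the liver-type PFKL fell by 0.50 ± 0.081 on the log2 scale. The muscle-type PFKM (0.13 ± 0.075, adjusted p = 0.198; under 0.05 without untreated replicate 3) was not called, nor was the gluconeogenic phosphatase FBP1 (-0.085 ± 0.078, adjusted p = 0.458). FBP2, its muscle counterpart, was called at -0.26 ± 0.095 (adjusted p = 0.0487), a call lost in 9 of 15 alternatives, namely without H2O2 replicate 2 or 4 or untreated replicate 1, 2 or 4, with the replicate block, quantile normalization or trended robust moderation, and with all probe sets in the fit; it read 5.34 ± 0.21 in H2O2 cells and 5.60 ± 0.086 in untreated cells, below the median of the tested genes.

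Down the pathway, 11 of 14 measured glycolytic and lactate enzymes fell and 1 rose (median -0.42), beside 14.8% of all genes called lower and 19.2% higher. The aldolase ALDOC fell by 1.67 ± 0.085 on the log2 scale, and so did the inducible hexokinase HK2 (-1.38 ± 0.082) and the liver pyruvate kinase PKLR (-0.71 ± 0.097). HK1, the housekeeping hexokinase, rose (0.53 ± 0.088, adjusted p = 0.000322) at levels below the median of the tested genes in both groups.

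The complex that the PDK and PDP enzymes act on was measured too. Of 8 genes for its subunits, its phosphatase regulator and the pyruvate carrier, 4 fell and 1 rose (median -0.23). Over all genes, 14.8% were called lower and 19.2% higher. MPC1, a subunit of the mitochondrial pyruvate carrier, fell most, to 10.11 ± 0.22 in H2O2 cells, against 11.00 ± 0.19 in untreated cells (log2 difference -0.89 ± 0.11, limma adjusted p = 2.98e-05). Its partner MPC2 gave -0.18 ± 0.10 (adjusted p = 0.203, but under 0.05 with array weights and without untreated replicate 3). PDHB, which encodes the beta subunit of the first enzyme, fell by 0.46 ± 0.097 and the binding protein PDHX by 0.30 ± 0.074. The acetyltransferase DLAT was called at -0.28 ± 0.091 (adjusted p = 0.0268), a call lost in 6 of 16 alternatives at adjusted p up to 0.0875: without H2O2 replicate 3 or 4 or untreated replicate 1, 2 or 3, and with all probe sets in the fit. PDHA1, whose product carries the sites that PDK enzymes phosphorylate, gave -0.16 ± 0.088 (adjusted p = 0.204; under 0.05 without untreated replicate 4), and the dehydrogenase DLD gave 0.057 ± 0.075 (adjusted p = 0.619). PDPR, which encodes the regulatory subunit of the phosphatase, rose (0.36 ± 0.094, adjusted p = 0.00837).

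**Figure D5:**
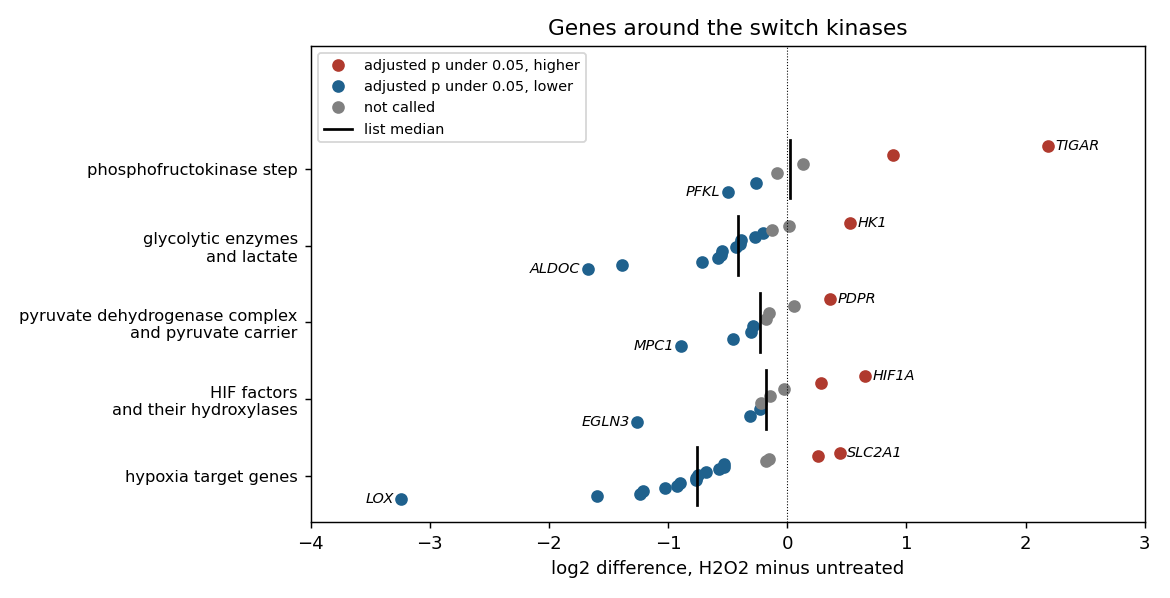
Log2 difference, H2O2 minus untreated (horizontal axis), of each measured gene of 5 lists around the PFKFB and PDK genes; each point is a gene, coloured by its call, and black bars are list medians. The hypoxia targets (median -0.75) and the glycolytic enzymes (-0.42) lie mostly below 0, with LOX lowest and TIGAR highest.

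PDK4, which was not called, is known to share control with PPAR and FOXO targets. Of 11 measured PPAR and FOXO target genes 5 fell and 6 were not called (median -0.20), beside 34% of all genes called and 14.8% called lower. G6PC1, which releases glucose from the liver cell, fell by 3.02 ± 0.16 on the log2 scale, the growth factor binding protein IGFBP1 by 1.31 ± 0.074 and the gluconeogenic enzyme PCK1 by 1.21 ± 0.16. On the H2O2 arrays, G6PC1 lay below the median of the tested genes on 3 and PCK1 on 2, so both sizes are approximate. Of 10 PPAR, FOXO and glucocorticoid receptor factors 5 fell and 2 rose (median -0.25), beside 14.8% of all genes called lower and 19.2% higher. The coactivator PPARGC1A (-1.38 ± 0.094), the receptor PPARG (-0.66 ± 0.075) and the zinc finger factor KLF15 (-0.48 ± 0.075) fell most, while NR3C1, the glucocorticoid receptor, rose (0.29 ± 0.076). KLF15 lay below the median of the tested genes on all 4 H2O2 arrays, so its size is approximate. PPARD also passed (0.28 ± 0.080), but not without H2O2 replicate 4 (adjusted p = 0.0521).

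Genes with a pattern most like PFKFB4, by Pearson's r over the 8 arrays, were PHGDH (0.997), the first enzyme of serine synthesis, FZD4 (0.997), a Wnt receptor, and SHMT2 (0.997), the mitochondrial serine hydroxymethyltransferase. PHGDH was at 10.62 ± 0.042 in H2O2 cells and 11.61 ± 0.090 in untreated cells, and SHMT2 at 10.86 ± 0.042 in H2O2 cells and 11.59 ± 0.059 in untreated cells. Most like PDK1 were PTTG1 (0.999), the mitotic protein securin, ANKZF1 (0.998) and EME1 (0.998), a subunit of a DNA repair nuclease. The points fall into the 2 groups, and 51 genes reached an r of 0.99 with PFKFB4 and 66 with PDK1. For PDK4, whose groups overlap, the highest values were 0.976 for OR5AP2, 0.973 for FKBP10 and 0.956 for PGAP3, and no gene reached 0.99.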

How the data were processed

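Total RNA of 8 HepG2 cultures was labelled with biotin as sense cDNA and hybridised to single-channel arrays, per the labels' protocols. The authors deposited 1 table of log2 expression values for 32321 probe sets; how probes were summarized and arrays normalized, and the genome build, are not given in the sources used here. limma is the 1 tool in the submitters' processing notes. No background or detection values were used here, and the number of arrays limits the precision.

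The platform annotation gives 1 symbol to 19158 probe sets, several to 1388 and none to 11775. Probe sets with 1 symbol gave 18404 genes; for 637 genes with several, the one with the highest mean over all 8 arrays was used. Symbols were checked through Entrez identifiers in a RefSeq table of GRCh38.p14 (19128 matched, 0 changed). No 2 arrays shared more than 0.00619% of their values.

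limma 3.58.1 in R 4.3.3 was fitted with 1 mean per group (lmFit, eBayes) and Benjamini-Hochberg adjustment over all genes; every adjusted p not called exact is from it. Paralog pairs were tested by exact permutation in Python 3.11.15 with pandas 2.3.3 and numpy 2.4.6, and plots used matplotlib 3.10.9. Both tests were checked on simulated data. The alternatives were quantile normalization, centring, a replicate block, a filter on dim genes, a trended robust moderation, array weights, the mean of a gene's probe sets, all probe sets, and leaving out each array. The rule named all 9 measured genes, all measured genes of the phosphofructokinase and pyruvate dehydrogenase lists, up to 3 called rises and 3 called falls of each other list, and the 3 genes most like PFKFB4, PDK1 and PDK4. The markers ALB, PTPRC, LYZ, CD68, CD14, PDGFRB, COL1A1 and CDH5, the HIF subunits EPAS1 and HIF3A, and list genes named as not analysed were added. The members and lists were chosen with earlier results of these data known. Same-numbered cultures of the 2 groups are not said to be paired.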

Additional observations from a re-analysis of the deposited data

Results flagged for a closer look

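On H2O2 replicate 1, PDK2 read 9.54, apart from the other 3 H2O2 arrays, which all read 9.41; the gap took up 0.963 of the group's range. It was 1 of 18 groups of 4 arrays checked in this way, of which chance alone would give about 1 in 20.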

How the results depend on the processing

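For PFKFB1, PFKFB2, PFKFB3, PFKFB4, PDK1, PDK3 and PDP1, direction and call held in every alternative that gave a value, the replicate block and each left-out array included. The log2 difference of PFKFB4 ranged from -2.05 to -1.99, of PDK1 from -1.98 to -1.87, of PFKFB1 from 1.67 to 1.72 and of PDP1 from 1.25 to 1.29. PDK4 stayed uncalled, at limma adjusted p from 0.161 to 0.534, and the filter on dim genes left neither PDK4 nor PFKFB2 in the fit. PDK2 stayed uncalled, and its sign turned with array weights (0.0022) and within the range of leaving out 1 array (-0.033 to 0.018). Over all genes, array weights gave 4111 lower calls in place of 2732; the cause was not tested. Centring each array on its median moved the share of calls that were higher to 50.1% in place of 56.4%. The labels do not say that culture numbers pair the groups: same-numbered cultures had correlations of -0.068, 0.060, -0.25 and 0.094 between their deviations from the group means, and 1 of 8 arrays correlated best with its own number. With the number as a replicate block, 3288 genes were called higher and 2470 lower. For the paralog pairs the block left 0 of 12 past the threshold, at an exact adjusted p of 0.136 or more, since 4 pairs cannot give a p under 0.125; every shift kept its size. Signal over background, and so the exact fold of genes below the median of the tested genes, is what the arrays limit.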

Other observations

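The kinase and phosphatase of the sister complex for branched-chain amino acids, which resemble the PDK and PDP enzymes in fold and role, were measured on the same arrays. BCKDK, the kinase, was at 9.06 ± 0.15 in H2O2 cells and 9.06 ± 0.063 in untreated cells (SD, n = 4 each; log2 difference 0.0060 ± 0.081, limma adjusted p = 0.965). PPM1K, the phosphatase, fell by 0.33 ± 0.071 on the log2 scale (limma adjusted p = 0.00226), at 6.38 ± 0.085 in H2O2 cells and 6.71 ± 0.085 in untreated cells, below the median of the tested genes. Of the 5 genes of that list 2 fell and 3 were not called (median -0.15). The share called is near that of all genes, 34%, while 14.8% of all genes were called lower. The other that fell was BCKDHA (-0.39 ± 0.084), a subunit of the complex.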
